A study of Mus musculus with 2 samples.

Results

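Translation initiation factors were examined as a gene family in mature mouse oocytes of 2 maternal ages. The family was taken by name: after the Ensembl identifiers of the table were given mouse symbols, all rows whose symbol is Eif followed by a digit from 1 to 6 and further letters or digits were kept, apart from Eif4enif1. The rule found 54 of 36227 genes in the table and 50 of the 18364 genes with counts. Of these 50, 43 averaged 20 counts or more across the libraries, the floor used for every ratio, and 7 lay below it. Eif2s3x, Eif2s3y, Eif2ak2 and Eif2c5 had no count in either column, and Eif2c5 carries an Argonaute symbol and is no initiation factor.

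Initiation is the step at which a ribosome is placed on the start codon of an mRNA. The cap at the head of the mRNA is bound by eIF4E, which joins the scaffold eIF4G and the helicase eIF4A. The small ribosomal subunit arrives with eIF1, eIF1A, eIF3, eIF5 and the initiator tRNA held by eIF2, and scans to the start codon. The exchange factor eIF2B recharges eIF2 with GTP, kinases that phosphorylate eIF2 lower its supply, and eIF5B joins the large subunit. An ovulated oocyte makes almost no new RNA and draws its proteins from stored mRNAs, and Eif4e1b is a cap-binding form known from oocytes.

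The young group was a pool of 18 oocytes from 6 ICR females of 3 months, 3 oocytes from each, and the aged group a pool of the same size and make-up from ICR females of 12 months. All females were raised on a standard diet and ovulated naturally, and the oocytes were at metaphase II (the MII stage). Neither genotype nor treatment differed by the labels beyond age. Each age was 1 library, so no difference below has a replicate check, no test was made, and all intervals are 95% and cover counting error only. Differences between individual females cannot be seen in a pool, and a transcript lower in each oocyte cannot be told apart from one present in fewer oocytes. The libraries were primed on poly(A) tails, and the part of tail length in the differences between the ages was not tested.

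The libraries held 19475110 counts (young) and 18597656 counts (aged), and a count of 0 allowed up to 0.154 and 0.161 counts per 1000000 counts of the library (CPM). All 12 oocyte markers, such as Gdf9, Zp3 and Mos, were counted in both libraries and summed to 181235 CPM (young) and 101149 CPM (aged). Most of this sum was Gdf9 (97099 and 42795 CPM) and H1foo (53502 and 39296 CPM). By CPM, 8 of the 12 were lower in the aged library and 4 were higher. Of 14 cumulus and granulosa markers 10 had counts, summing to 28.9 CPM (young) and 59.1 CPM (aged). Most of these were Cyp19a1, with 436 and 1056 counts, whereas Amh, Foxl2, Inhba and Lhcgr had none. Lower in the aged library were Vim (51 and 0 counts), Kitl (30 and 22), Cyp11a1 (27 and 1) and Inha (14 and 0). Fshr was higher (0 and 16), and the rest had at most 2 counts in either library. The part of these other cells in the differences below was not tested. The 100 most abundant genes took 51.1% of the young and 40.6% of the aged counts. Ratios are given on the scale of library totals, on which the median gene stood at a log2 ratio (aged over young) of 0.43. Other scalings lower all log2 ratios by 0.29 to 0.43, so a log2 ratio between 0 and 0.43 does not keep its sign under all of them.

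Initiation factor transcripts made up 0.367% (0.364 to 0.370) of the young and 0.497% (0.493 to 0.500) of the aged counts, from 71445 and 92361 counts. The summed level was 1.35-fold higher in the aged library, close to the shift of the median gene: the log2 ratio of the sum was 0.44 on library totals and 0.01 after centring on the median gene. A few genes made up most of it. The 5 most abundant members gave 55.5% (young) and 51.8% (aged) of the family's counts, and the first 10 gave 81.8% and 81.6%.

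Per gene, 7 of 43 members (16.3%) passed 2-fold on the side of the aged library, as did 27.9% of all 10211 genes above the floor. Another 2 of 43 (4.65%) passed 2-fold on the side of the young library, as did 10.6% of all genes. The remaining 34 lay within 2-fold. With the counting interval also beyond 2-fold, 6 members were higher and 1 was lower, against 18.0% and 6.35% of all genes. Relative to the median gene, 5 (11.6%) passed 2-fold upward and 4 (9.30%) downward, against 16.0% and 17.3% of all genes. On each of these rules the members' shares lay below those of all genes, without a test of that gap. Once genes were compared within bins of equal length and GC content, 6 members (14.0%) were higher and 5 (11.6%) lower, against 13.6% and 15.0% of all genes. The median log2 ratio of the 43 members was 0.43, equal to the median gene to 2 decimals. It was 0.0016 after centring on the median gene and −0.10 with that correction for length and GC content. The correction subtracts the median log2 ratio of each bin, so it also takes out the shift over all genes, whose median became 0. On library totals the middle range of the members ran from 0.08 to 0.87, against −0.28 to 1.09 for all genes. The members are described below in the order of their roles.

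**Figure D1:**
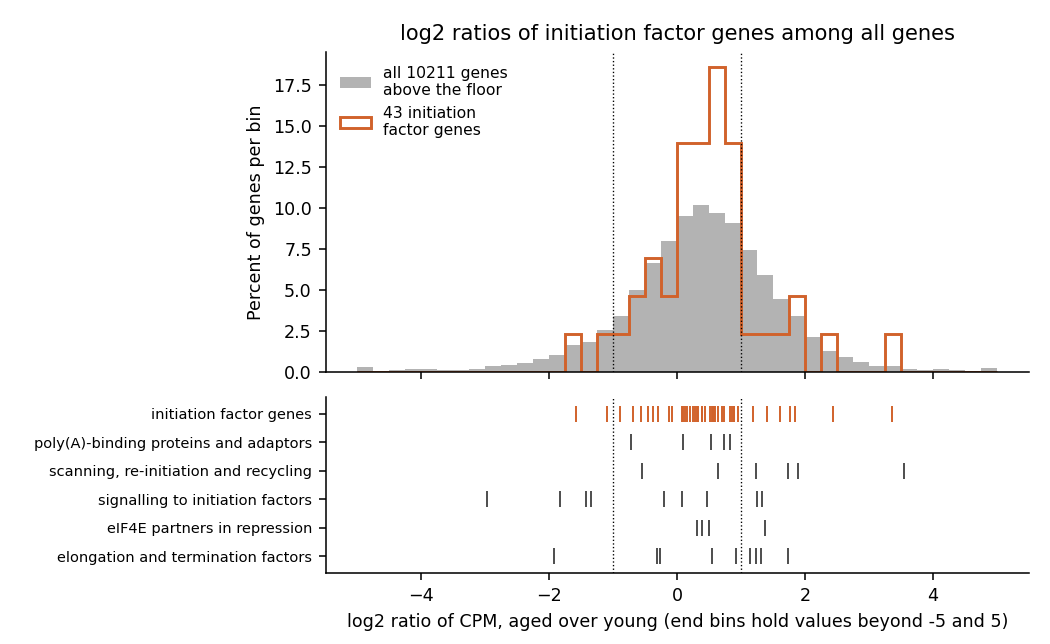
The upper panel shows the share of genes (percent per bin of log2 ratio of CPM, aged over young) for all genes above the floor (grey) and for the 43 initiation factor genes (orange outline). The lower panel marks each gene of the family and of the other translation lists, with dotted lines at 2-fold. Most members sit between the dotted lines, and Eif3h at 3.36 is the member farthest to the right.

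**Figure D2:**
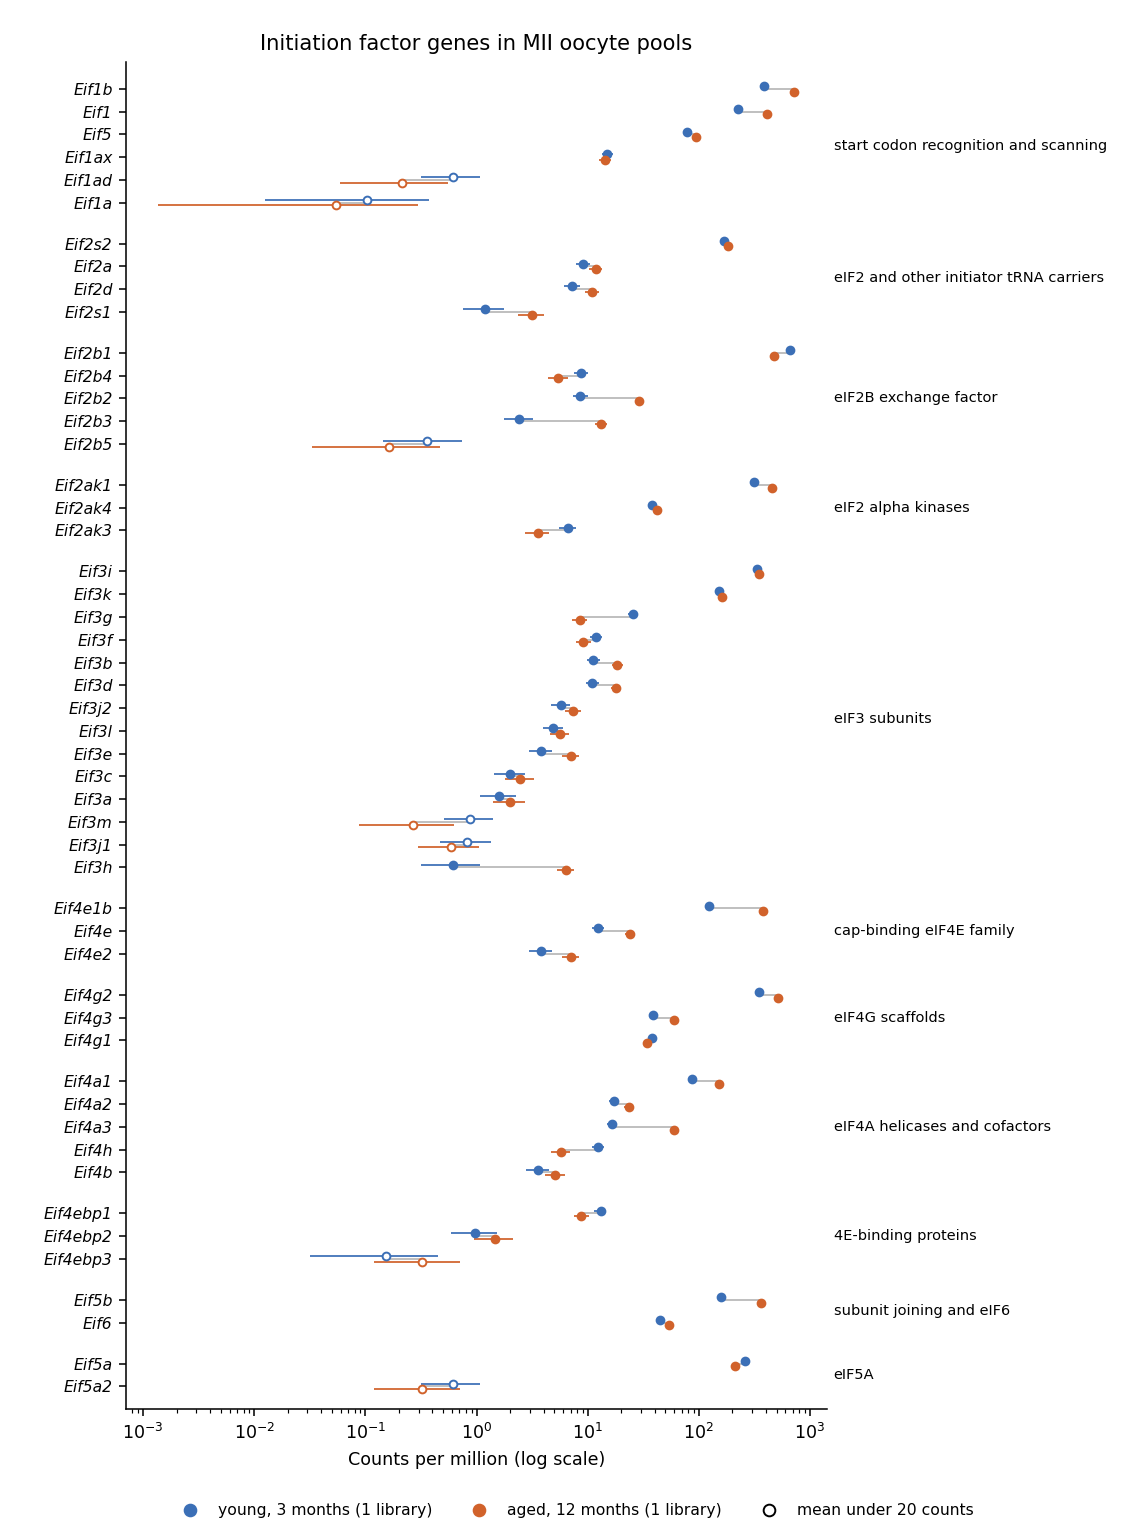
Level of each counted initiation factor gene in CPM on a log axis, in the young (blue) and aged (orange) library, grouped by role. Bars are exact Poisson 95% intervals for counting error, and open symbols mark genes with a mean under 20 counts. Levels run from under 1 CPM to 717 CPM for Eif1b in the aged library.

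The cap-binding group held the oocyte form Eif4e1b, the general cap-binding protein Eif4e, and Eif4e2, a relative that binds caps without joining eIF4G. Eif4e1b had 2426 counts (125 CPM) at 3 months and 7085 counts (381 CPM) at 12 months. It was 3.06-fold higher in the aged library (2.92 to 3.20), and stayed past 2-fold under all 6 other scalings and count settings tried, with log2 ratios of 1.19 to 1.61. Eif4e had 242 and 446 counts, 1.93-fold higher (1.65 to 2.27). Eif4e2, with 74 and 131 counts, was 1.85-fold higher (1.38 to 2.50). All 3 stood on the same side, and for Eif4e this held except after correction for length and GC content. There its log2 ratio was −0.02, beside 0.52 after centring alone.

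Most cap-binding transcripts of these oocytes came from Eif4e1b. It gave 88.5% (87.2 to 89.6) of the group's counts in the young library and 92.5% (91.9 to 93.1) in the aged library. Per kilobase of transcript its level was 23.5 times (young) and 37.2 times (aged) that of Eif4e. Such a share within a library does not depend on the scaling between libraries, although dividing by length takes reads to be spread over the whole transcript, which was not tested. By level per kilobase Eif4e1b ranked 9th among the counted members in the young library and 5th in the aged library. The symbol Eif4e3 was not among the mapped rows, and its level is not analysed here.

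The counts of Eif4e1b rest on its sequence being distinct from that of Eif4e. Their coding sequences, from GENCODE mouse release 21, were 66.2% identical over 648 aligned bases, with no exact run longer than 11 bases in the coding parts. The stretch below is 1 example of 60 bases, at coding positions 235 to 294 of Eif4e (chromosome 3) and 319 to 378 of Eif4e1b (chromosome 13), with the 21 differing bases in capitals.
Eif4e: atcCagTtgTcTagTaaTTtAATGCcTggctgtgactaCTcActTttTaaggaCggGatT
Eif4e1b: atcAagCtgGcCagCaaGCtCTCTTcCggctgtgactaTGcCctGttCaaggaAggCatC

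The 3′ ends of the 2 transcripts are shown because the libraries were primed on poly(A) tails. The last bases hold the signal for cutting and tailing, AATAAA or ATTAAA, in capitals, with positions on GRCm38. The Eif4e1b stretch lies at chr13:54788422-54788451 and that of Eif4e at chr3:138559664-138559693, both in the 3′ untranslated region on the plus strand.
Eif4e1b: ggccctttctgtatctaAATAAAcacttct
Eif4e: cagaggattggaATTAAAtgcgttcactac

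Transcripts of the 4E-binding proteins, inhibitors of the cap-binding step, were few. The 4E-binding proteins hold eIF4E away from eIF4G until mTOR phosphorylates them. Eif4ebp1 had 254 counts (young) and 163 counts (aged), 1.49-fold lower (1.22 to 1.82), and passed 2-fold lower with length and GC correction (log2 ratio −1.24). Eif4ebp2 had 19 and 27 counts, with an interval of the fold from 0.80 to 2.83, and Eif4ebp3 had 3 and 6, below the floor. Summed per kilobase, the cap-binding genes stood at 8.98 times (young) and 36.6 times (aged) the 4E-binding protein genes. Most of that sum was Eif4e1b. Eif4e alone, at 2.49 (young) and 4.80 (aged) CPM per kilobase, lay below the summed 4E-binding protein genes, at 6.91 and 5.07. The protein levels and their phosphorylation are not known from these counts.

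**Figure D3:**
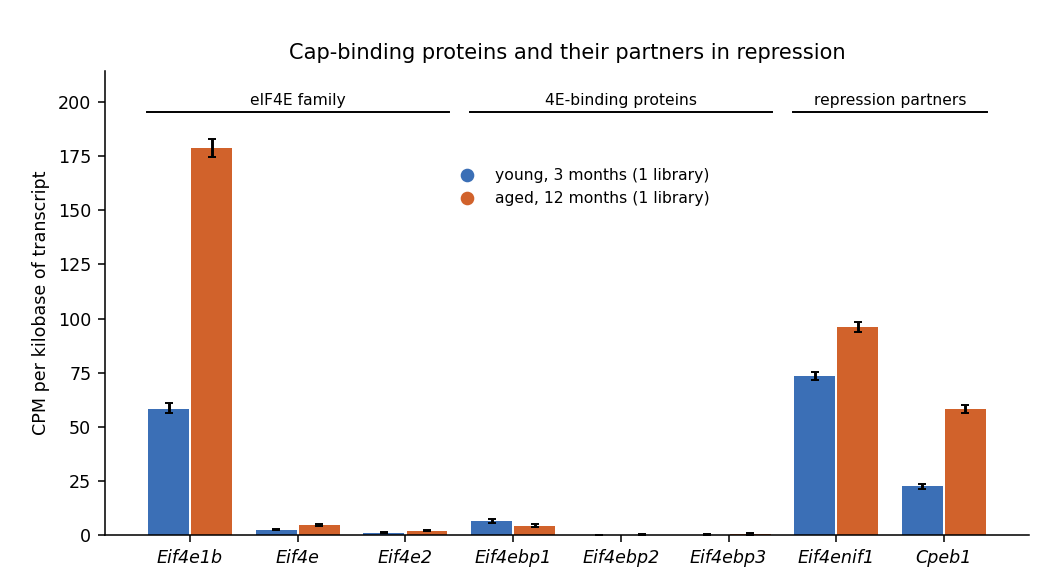
Levels in CPM per kilobase of transcript of the cap-binding genes, the 4E-binding protein genes and 2 eIF4E partners in repression, in the young (blue) and aged (orange) library, with bars for counting error (95%). Eif4e1b goes from 58.5 to 179 and exceeds every other gene shown in the aged library, while Eif4e and the 4E-binding protein genes stay under 7.

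Among the eIF4G scaffolds, which bridge the cap and the ribosome, Eif4g2 was the main form. Its protein lacks the site for eIF4E and serves initiation without eIF4E. It had 6804 counts (young) and 9572 counts (aged), or 82.1% and 84.5% of the scaffold counts. Its ratio was 1.47-fold (1.43 to 1.52), with log2 values of 0.13 after centring alone and −0.44 after length and GC correction. The classical scaffold Eif4g1 had 730 and 638 counts, and Eif4g3 had 749 and 1118. None of the 3 reached 2-fold in either direction. In the aged library Eif4g1 was the lowest of the 3 per kilobase, at 6.08 against 7.39 for Eif4g3 and 64.4 for Eif4g2.

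The eIF4A helicases unwind the leader of the mRNA. Eif4a1 led with 1676 and 2850 counts, 1.78-fold higher in the aged library (1.68 to 1.89). Eif4a3, whose protein is known as a core part of the exon junction complex rather than of initiation, had 323 counts (young) and 1108 counts (aged). It was 3.59-fold higher (3.17 to 4.08), and its log2 ratio stayed between 1.42 and 1.83 under the 6 other settings. Eif4a3 made up 13.8% (12.4 to 15.3) of the young and 25.2% (23.9 to 26.5) of the aged helicase counts. Eif4a2, with 338 and 434 counts, was within 2-fold. The helicase cofactors stood apart from each other. Eif4h, an RNA-binding cofactor that stimulates eIF4A, had 240 counts (young) and 107 counts (aged), 2.14-fold lower (1.70 to 2.72), so that its interval reaches inside 2-fold. The related cofactor Eif4b had 69 and 94 counts, within 2-fold.

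Of the factors that keep the ribosome scanning and judge the start codon, Eif1 and its close copy Eif1b were among the most abundant members. Eif1b had 7579 and 13326 counts, 1.84-fold higher in the aged library (1.79 to 1.89). Eif1 had 4414 and 7633 counts, 1.81-fold higher (1.74 to 1.88). Eif1b gave 63.2% (young) and 63.6% (aged) of their joint counts. With length and GC correction their log2 ratios stood apart, at 1.31 for Eif1b and 0.38 for Eif1. Their coding sequences were 81.3% identical with an exact run of up to 25 bases, so that short reads could be shared between them. An example of 60 bases, at coding positions 110 to 169 of both, shows how the 12 differences (capitals) are spaced.
Eif1: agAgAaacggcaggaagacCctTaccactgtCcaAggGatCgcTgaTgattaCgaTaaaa
Eif1b: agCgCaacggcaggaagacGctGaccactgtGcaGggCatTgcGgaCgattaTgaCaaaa

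Eif5, which triggers GTP hydrolysis on eIF2 at the start codon, had 1535 and 1741 counts, a ratio of 1.19-fold (1.11 to 1.27). Eif1ax, an eIF1A gene of the X chromosome, had 293 and 265 counts. Its autosomal copy Eif1a had 2 and 1, so that Eif1ax gave 99.3% and 99.6% of the eIF1A counts. Eif1ad had 12 and 4 counts, below the floor. None of the 4 scanning factors above the floor reached 2-fold on library totals. With length and GC correction Eif1b passed it upward (log2 ratio 1.31) and Eif1ax downward (−1.10). The median of the 4 was 0.55 on library totals, 0.13 after centring alone and −0.23 with length and GC correction.

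The counts of the eIF2 group were uneven between subunits. Eif2s2, the beta subunit, had 3261 counts (young) and 3390 counts (aged). Eif2s1, the alpha subunit that the stress kinases phosphorylate, had only 23 and 58 counts. Its ratio of 2.64-fold (1.60 to 4.49) had an interval that begins inside 2-fold, and after centring on the median gene or after length and GC correction it was under 2-fold, the lowest log2 ratio being 0.26. Per kilobase Eif2s2 exceeded Eif2s1 by 190 times (young) and 78.3 times (aged). The gamma subunit genes Eif2s3x and Eif2s3y had no count in either column. Eif2s3y lies on the Y chromosome, which the females that gave these oocytes lack, so its lack of counts follows from the design. The coding sequences of Eif2s3x and Eif2s3y were 86.3% identical, with exact runs of up to 34 bases. The sources used here do not say how reads matching more than 1 gene were treated, which bears on Eif2s3x. Eif2a and Eif2d, which can bring initiator tRNA without eIF2, had 177 and 220 counts and 141 and 203 counts, both within 2-fold.

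Subunits of the exchange factor eIF2B differed in direction. Eif2b2, the beta subunit of the regulatory part, had 167 counts (young) and 541 counts (aged), 3.39-fold higher (2.85 to 4.06). Eif2b3, the gamma subunit, which pairs with the catalytic epsilon subunit, had 47 and 244 counts, 5.44-fold higher (3.97 to 7.60). Both were past 2-fold in all 6 other settings. Eif2b1, the alpha subunit, was by far the most abundant, with 12749 counts (young) and 8851 counts (aged), 1.38-fold lower (1.34 to 1.41). Eif2b4, the delta subunit, had 170 and 101 counts, 1.61-fold lower (1.25 to 2.08). It passed 2-fold lower with edgeR TMM scaling, DESeq2 size factors and centring on the median gene, at log2 ratios of −1.06, −1.04 and −1.11. Each of these lowers all log2 ratios, and with length and GC correction the value was −0.60. Eif2b5, the catalytic subunit, had 7 and 3 counts. In shares, Eif2b1 went from 97.0% to 90.9% of the eIF2B counts, while Eif2b2 went from 1.27% to 5.55%.

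Among the kinases that phosphorylate eIF2, the heme-regulated kinase Eif2ak1 was the most abundant, with 6043 and 8416 counts and 87.4% and 90.8% of the kinase counts. Its ratio was 1.46-fold (1.41 to 1.51), with log2 values of 0.12 after centring alone and −0.10 after length and GC correction. Eif2ak4, the kinase activated by uncharged tRNA, had 740 and 789 counts. Eif2ak3, the kinase of endoplasmic reticulum stress, had 129 counts (young) and 66 counts (aged), 1.87-fold lower (1.38 to 2.55). Its log2 ratio lay between −1.33 and −1.19, past 2-fold, under 5 of the 6 other settings, and was within 2-fold with 5 counts added. The scalings among these lower all log2 ratios. Length and GC correction, which also takes out the shift over all genes, gave −1.30, beside −1.33 after centring alone. Eif2ak2, the kinase of double-stranded RNA, had no count in either column.

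eIF3 is the large scaffold that holds the small ribosomal subunit. In the young library its genes above the floor ran from 0.311 (Eif3a) to 297 (Eif3i) CPM per kilobase. Eif3i had 6499 and 6522 counts and Eif3k 2971 and 3008, together most of the eIF3 counts: 59.0% and 27.0% at 3 months, 58.6% and 27.0% at 12 months. Their ratios were 1.05-fold and 1.06-fold on library totals. At the other end, Eif3a, the largest subunit, had 31 and 37 counts and Eif3c 39 and 46. The counts of the subunit transcripts were thus unequal at both ages. The part of poly(A) priming and amplification in such differences between genes, here and in the other complexes, was not tested.

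Of 12 eIF3 genes above the floor, Eif3h passed 2-fold upward and Eif3g downward. Eif3h, a subunit of the octamer core, had 12 counts (young) and 118 counts (aged), 10.3-fold higher (5.68 to 20.5), and its log2 ratio was between 2.89 and 3.08 in the 6 other settings. Per kilobase Eif3i exceeded Eif3h by 625 times (young) and by 63.7 times (aged). Eif3g, an RNA-binding subunit that docks on Eif3b beside Eif3i, had 495 counts (young) and 158 counts (aged), 2.99-fold lower (2.50 to 3.60). It was past 2-fold in all 6 other settings, at log2 ratios from −2.01 to −1.39. The scalings among these lower all log2 ratios and could not bring it within 2-fold. With 5 counts added the log2 ratio was −1.55, and with length and GC correction −1.39. By level per kilobase Eif3g went from the 13th to the 20th place of the members. Its neighbour Eif3b went the other way, with 218 and 344 counts (1.65-fold, 1.39 to 1.97), and Eif3i lay at 1.05-fold.

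The other eIF3 genes lay within 2-fold. Eif3d had 214 and 333 counts, Eif3e 74 and 131, Eif3l 95 and 104, and Eif3f 231 and 170, the last 1.30-fold lower (1.06 to 1.59). Eif3m had 17 and 5 counts, below the floor. Eif3j1 and Eif3j2 share their coding sequence (100% identity over 786 aligned bases, with an exact run of 784), so their 16 and 11 counts and their 111 and 138 counts cannot be assigned to 1 or the other gene. The median log2 ratio of the 12 genes was 0.31 on library totals and turned negative with the other scalings (−0.06 with edgeR TMM, −0.04 with DESeq2 size factors, −0.11 after centring), apart from 0.03 with totals that leave out the 100 most abundant genes.

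**Figure D4:**
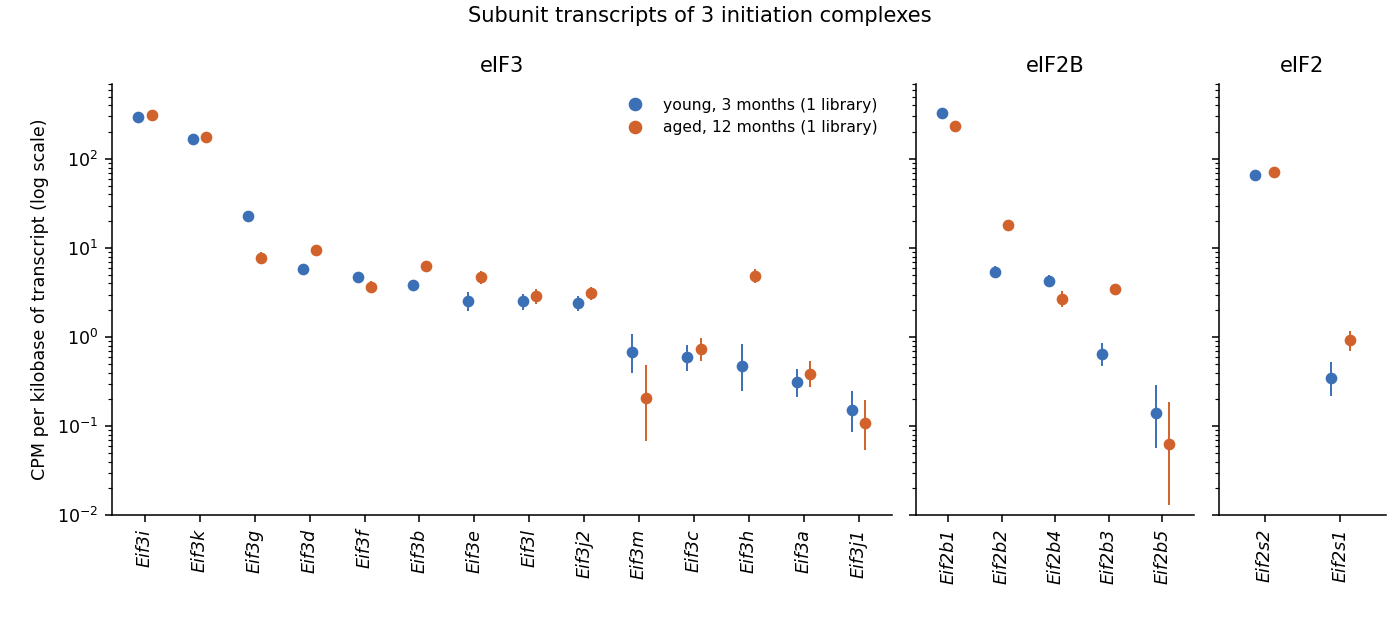
Levels of the subunit transcripts of eIF3, eIF2B and eIF2 in CPM per kilobase on a log axis, in the young (blue) and aged (orange) library, ordered by the young level, with counting intervals (95%). Eif3h, Eif2b2, Eif2b3 and Eif2s1 lie higher in the aged library and Eif3g lower, the Eif2s1 interval reaching inside 2-fold, and Eif3i, Eif2b1 and Eif2s2 are the most abundant of their complex at both ages.

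At the last step, Eif5b, the GTPase that joins the large subunit, had 3093 counts (young) and 6685 counts (aged). It was 2.26-fold higher on library totals (2.17 to 2.36), but under 5 of the 6 other settings it was within 2-fold, its lowest log2 ratio being 0.18. Its exons overlap those of Rev1 on the opposite strand over 1643 bases, and Rev1 had 1080 and 1526 counts. The sources used here do not give the use of strand in counting, so reads of the 2 genes cannot be told apart there. In all, 10 of the 43 members overlap a gene on the opposite strand, among them Eif2b4 with Snx17 (54 and 8 counts, 204 bases). Of the 9 members past 2-fold this holds for Eif5b. Eif6, which keeps the ribosomal subunits from joining too early, had 863 and 1004 counts. Eif5a, named as an initiation factor but known for helping elongation, had 5018 and 3910 counts, 1.23-fold lower (1.18 to 1.28), and Eif5a2 had 12 and 6.

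**Figure D5:**
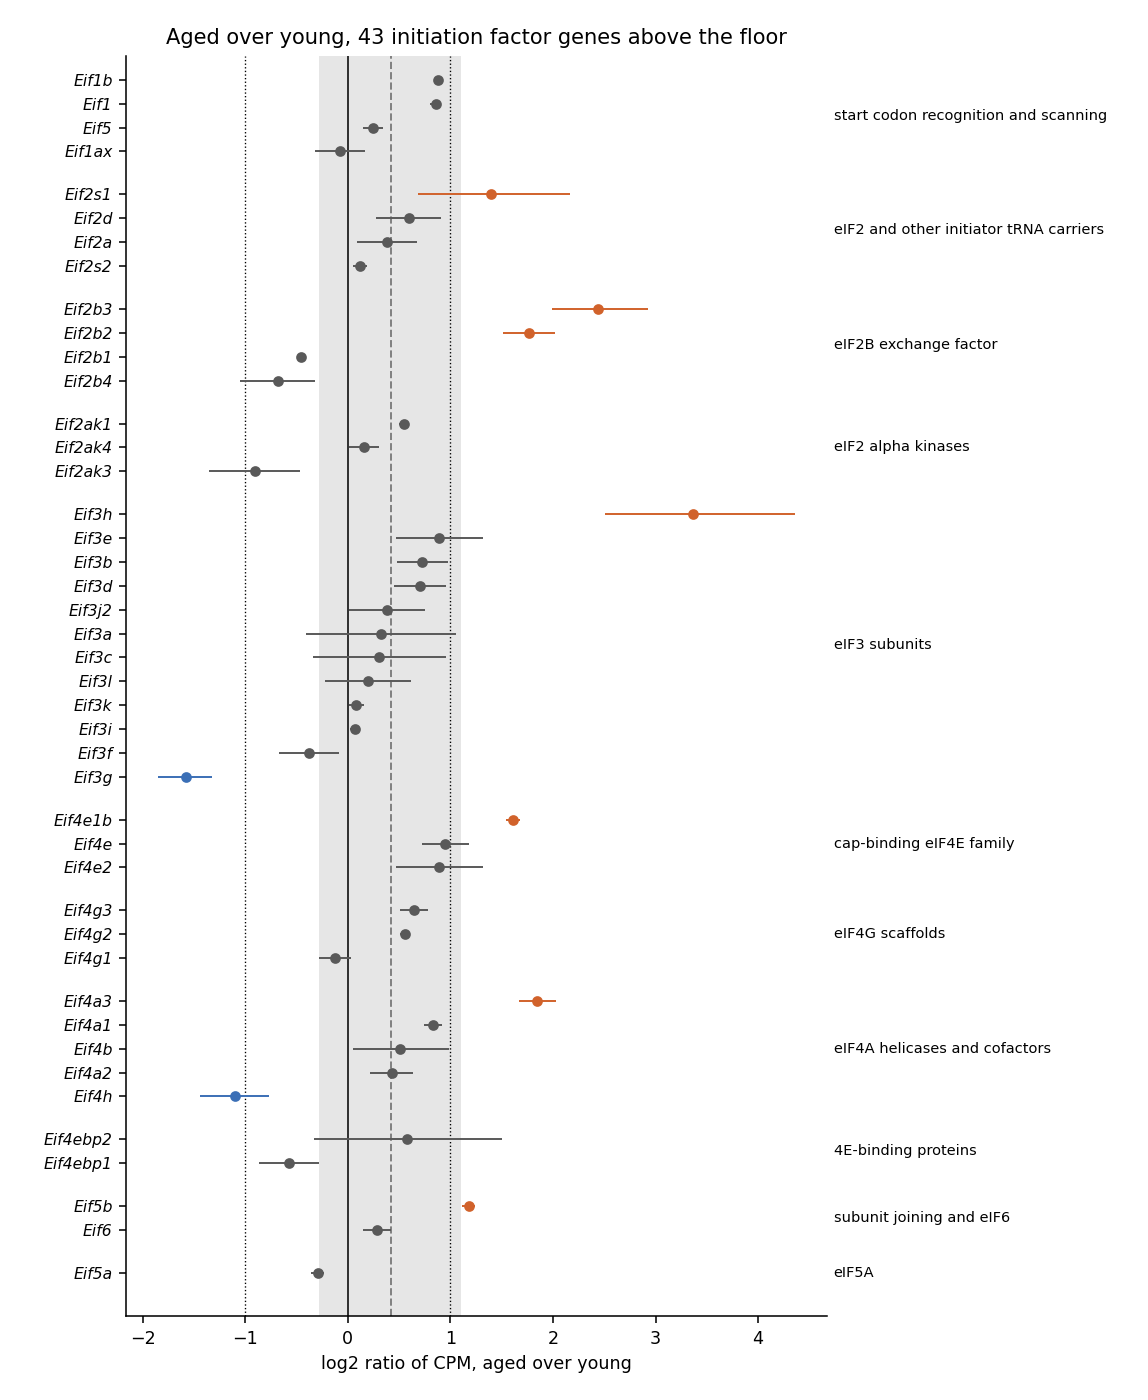
Log2 ratio of CPM (aged over young, library totals) of the 43 members above the floor by role, with counting intervals (95%), orange for 2-fold or more above and blue for 2-fold or more below. The dashed line is the median of all genes and the grey band their middle range. Eif2s1 and Eif5b lose the 2-fold mark when the median gene is set to 0, while Eif2b4 and Eif2ak3 then pass it on the lower side.

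The 3′ ends of the members were searched for the cytoplasmic polyadenylation element, a U-rich motif through which the protein CPEB1 lengthens poly(A) tails as oocytes mature. TTTTAT or TTTTAAT was looked for on the transcript strand in the last 100 bases of the longest coding transcript (neither motif holds the other). It was present in 2 of 43 members above the floor (4.65%), and in 20.5% of 9220 genes searched in the same way. Among all genes the median log2 ratio was 0.37 with the motif and 0.45 without it, on library totals. The 2 members were Eif1ax and Eif3j2. In the last 40 bases of Eif1ax neither tailing signal, AATAAA or ATTAAA, was found. The stretch of Eif1ax that holds the U-rich motif lies at chrX:159389887-159389916 on the plus strand (3′ untranslated region, GRCm38), with the motif in capitals.
Eif1ax: attcagtggatgTTTTATgctgcacaaata
Eif3h, the member with the highest ratio, had no such motif in this window, and its tailing signal lies at chr15:51786569-51786598 on the minus strand.
Eif3h: tttctagccaatAATAAAactttaattggt
AATAAA or ATTAAA was found in the last 40 bases of 31 of 43 members (72.1%) and of 78.9% of all genes.

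Beyond the Eif names, 42 other translation genes were listed, 34 of them above the floor: 11 (32.4%) passed 2-fold upward in the aged library and 5 (14.7%) downward, near the 27.9% and 10.6% of all genes. Their median log2 ratio was 0.51 on library totals, and with edgeR TMM scaling 4 (11.8%) were higher and 6 (17.6%) lower, against 17.2% and 16.3% of all genes. Among 6 genes for scanning, re-initiation and ribosome recycling 4 were higher and none was lower, against 27.9% and 10.6% of all genes. The median log2 ratio of this group was 1.48. This list and those below were chosen with earlier results of these data known, so their shares beside all genes are descriptive only. Mcts1, which re-initiates with Denr, had 6 and 67 counts (11.7-fold, 5.10 to 33.0). Mcts2 of the same list went the other way, with 13 and 0 counts, below the floor. Whether reads were shared between Mcts1 and Mcts2 was not tested. The scanning helicase Dhx29 had 79 and 280 (3.71-fold, 2.88 to 4.83), and the recycling factor Abce1 had 34 and 108 (3.33-fold, 2.24 to 5.05). The helicase Ddx3x, with 2569 and 5774 counts, was 2.35-fold higher, and Abcf1, with 257 and 167, was 1.47-fold lower. The median of this group was 1.06 after centring alone, with 3 genes past 2-fold. It was 0.46 with length and GC correction, which left 2 genes past 2-fold.

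Of 9 genes above the floor that signal to the initiation factors, 2 were higher and 4 lower, against 27.9% and 10.6% of all genes, with a median log2 ratio of −0.21. Ppp1r15a, the stress-induced partner that directs a phosphatase to eIF2, had 1919 counts (young) and 232 counts (aged), 7.90-fold lower (6.89 to 9.09). Ppp1r15b, its constitutive counterpart, had 161 and 43 counts, 3.58-fold lower (2.54 to 5.13). Both partners of eIF2 dephosphorylation were thus lower in the aged library. Rptor, a part of the mTOR complex that phosphorylates the 4E-binding proteins, had 155 and 55 counts (2.69-fold lower, 1.97 to 3.73). Mknk1, a kinase of eIF4E, had 2675 and 1005 (2.54-fold lower, 2.36 to 2.74). The 4 other scalings lower all log2 ratios, so they could not bring these 4 genes within 2-fold. Length and GC correction also takes out the shift over all genes. It gave log2 ratios of −2.91 (Ppp1r15a), −2.37 (Ppp1r15b), −1.48 (Rptor) and −1.51 (Mknk1). Rps6kb1, with 107 and 256 counts, and Pdcd4, an inhibitor of eIF4A, with 192 and 434, were 2.51-fold and 2.37-fold higher, and neither was past 2-fold with edgeR TMM scaling, DESeq2 size factors, centring, or length and GC correction.

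Of the 5 eIF4E partners in repression above the floor, which act on stored mRNAs, only Cpeb1 passed 2-fold, with 1368 and 3373 counts (2.58-fold higher, 2.42 to 2.75), and it did not with edgeR TMM scaling, after centring, or with length and GC correction. Eif4enif1, which carries eIF4E into repressed particles, had 5304 and 6636 counts. Among poly(A)-binding proteins and their adaptors none of 5 reached 2-fold on library totals. The oocyte form Pabpc1l had 751 and 433 counts, 1.66-fold lower (1.47 to 1.87). It passed 2-fold lower after centring, which lowers all log2 ratios (−1.15), and stood at −0.62 with length and GC correction. The adaptor Paip1 had 8627 and 14519 counts, whereas the somatic Pabpc1 had 4 and 8. Of 9 genes listed as elongation and termination factors 4 were higher and 1 lower, against 27.9% and 10.6% of all genes. Eef1e1, which carries an elongation factor symbol and is no such factor, had 244 and 772 counts (3.31-fold, 2.87 to 3.84). Eef1d had 144 and 341 (2.48-fold), and Eefsec, the factor for selenocysteine, 56 and 14 (3.82-fold lower, 2.10 to 7.43). With edgeR TMM scaling 1 of these 9 was higher and 1 lower, and with length and GC correction 2 were higher and 3 lower.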

How the data were processed

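RNA of 2 pools of 18 MII oocytes was reverse transcribed with a 24-base oligo(dT) primer, amplified in 18 and then 14 PCR cycles and read on the SOLiD system, per the labels' protocols. The build was mm9, per the submitters' processing notes; aligner, counting program, annotation release and strand use: not given in the sources used here. The deposited table holds the authors' whole-number counts per gene and library. The authors' deposited log2 fold change, score and p-value columns set 1 library against the other and gave no result here. Of the rows with counts, 93.7% received a symbol.

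Counts were divided by library totals (CPM), and by the length of the longest transcript in GENCODE release 21 (GRCm38) for levels between genes. A gene counted as different at 2-fold with a mean of at least 20 counts; ratio intervals are exact Clopper-Pearson and count intervals exact Poisson (95%). No molecular identifiers were used, so reads are not independent molecules. A count of 0 was set to 3 for a ratio. Alternatives were edgeR 4.0.16 TMM factors, DESeq2 1.42.0 size factors (scaling only), centring on the median gene, totals without the 100 most abundant genes, 5 added counts, medians of 10 length and 10 GC bins, other floors, and leaving out kinases and 4E-binding proteins. The ratio script was checked on simulated data. The members and lists were chosen with earlier results of these data known. All members may be named, those with the largest ratios and levels in each role with intervals. Of each other list up to 3 genes with the largest ratio may be named. Ddx3x, Abcf1, Mcts2, Mknk1, Rps6kb1, Pdcd4, Eif4enif1 and Pabpc1 were added after their values were seen.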

Additional observations from a re-analysis of the deposited data

How the results depend on the processing

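With 1 library per age no library could be left out. No paired analysis was possible, since each age was 1 library from a separate pool. The members' median log2 ratio of 0.43 became 0.053 with edgeR TMM scaling, 0.071 with DESeq2 size factors, 0.0016 after centring, 0.14 without the 100 most abundant genes, −0.10 with length and GC correction, 0.35 with no floor, 0.47 without kinases and 4E-binding proteins, and 0.38 without members overlapping a gene on the opposite strand, the last chosen after seeing the data. The 2 members at least 2-fold lower became 4 with edgeR TMM, DESeq2 and centring, 5 with length and GC correction, 5 with no floor, and 1 where the interval also had to pass 2-fold; the higher members stayed between 5 and 8. The log2 ratio of Eif4e1b of 1.61 became 1.24 (TMM), 1.26 (DESeq2), 1.19 (centring), 1.33 (without the 100 genes) and 1.45 (length and GC). The summed members' 0.44 became 0.063, 0.081, 0.011 and 0.15 under the 4 scalings in the same order. Among all genes the shares higher and lower went from 27.9% and 10.6% to 17.2% and 16.3% with TMM. Of the other values, 279 stayed and 285 moved, judged for a single gene by its counting interval, for a count of genes by a factor of 1.5 and for a group median by a difference of 0.01; no single gene past 2-fold changed sign. Counting intervals were wide for genes of few counts, such as Eif3h and Eif2s1, and the spread between animals is unknown.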

Other observations

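Some features that share sequence with the members were counted on their own. The processed pseudogene Eif1-ps1 had 92 counts (young) and 303 counts (aged), 3.45-fold higher (2.72 to 4.40), whereas Eif1-ps3 had 20 and 11. Gm20696, which shares 373 exonic bases with Eif4e3 on the same strand, had 7144 and 5908 counts. Small nucleolar RNAs that lie in annotated exons of Eif4a1, Eif4a2 and Eif5 were mostly higher in the aged library: Gm24029 (within Eif4a1) had 39 and 156 counts, Gm22988 (Eif4a1) 21 and 63, Gm24616 (Eif4a2) 8 and 75, Gm26447 (Eif4a2) 13 and 37, and Snora28 (Eif5) 0 and 54. The hosts Eif4a1, Eif4a2 and Eif5 were all within 2-fold. Whether these counts are small RNAs or host reads was not tested.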
